A study of Mus musculus with 2 samples.

Results

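The 14-3-3 proteins are a family of small acidic adaptors, and their 7 mouse genes are Ywhab (beta), Ywhae (epsilon), Ywhag (gamma), Ywhah (eta), Ywhaq (theta, also called tau), Ywhaz (zeta) and Sfn (sigma, or stratifin). All 7 were taken by gene identifier from tables of 43346 genes, and their 28 transcripts were taken from the matching transcript tables. The libraries came from the forebrains of newborn mice of strain B6NCrl on the day of birth, postnatal day 0. They are named pup 1 (replicate 1) and pup 3 (replicate 2) here. The labels give separate pups but the same donor identifier, so how far their spread is biological is unknown. Each library was made by a Smart-seq protocol from 13 pg of total RNA longer than 200 nt, with spike-in RNA added. This input was described as 1 cell-equivalent. The RNA was extracted from tissue, so each library mixes all forebrain cell types, and fewer cells of a type cannot be told apart from less RNA per cell. Both libraries form 1 group with 1 library per pup, so no test between pups was possible and no p-value is given.

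A 14-3-3 protein works as a dimer whose grooves hold short peptides with a phosphorylated serine or threonine, and binding can hide, hold in place or bridge the partner, called a client. The symbol of 6 of the genes refers to the activation of tyrosine and tryptophan hydroxylases, the enzymes that start catecholamine and serotonin synthesis. Brain is among the tissues richest in these proteins, where they act in neuronal migration, kinase signalling and transmitter release, while stratifin is best known from epithelial cells.

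The 7 genes are paralogs, and how far their bases differ bears on how well a short read can be given to 1 of them. Across the 21 pairs of coding sequences (735 to 765 bases each, GENCODE M21 on mm10), the median share of identical aligned bases was 67.1%. The stretch below, chosen among those without gaps and within 1 exon in each gene, is the 60 bases in which the 7 members resemble each other most, at a mean pairwise identity of 78.8%. It is shown because the differences that separate the paralogs run through even this stretch. Capitals mark bases that differ from Ywhaz in the alignment, all coordinates are mm10, and each sequence reads 5′ to 3′ on the gene's own strand.
Ywhaz (chr15:36775456-36775515, minus strand): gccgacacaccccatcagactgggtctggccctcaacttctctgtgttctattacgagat
Ywhaq (chr12:21396322-21396381, minus strand): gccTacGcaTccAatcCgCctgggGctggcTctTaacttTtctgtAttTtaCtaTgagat
Ywhab (chr2:164015295-164015354, plus strand): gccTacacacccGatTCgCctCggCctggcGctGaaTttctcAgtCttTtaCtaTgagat
Ywhah (chr5:33026952-33027011, plus strand): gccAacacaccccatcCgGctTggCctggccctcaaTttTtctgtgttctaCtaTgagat
Ywhag (chr5:135911182-135911241, minus strand): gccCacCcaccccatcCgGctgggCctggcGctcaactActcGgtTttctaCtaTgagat
Ywhae (chr11:75756937-75756996, plus strand): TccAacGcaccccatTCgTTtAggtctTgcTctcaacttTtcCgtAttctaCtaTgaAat
Sfn (chr4:133601222-133601281, minus strand): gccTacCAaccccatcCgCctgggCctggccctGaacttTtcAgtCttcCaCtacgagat
Ywhah differed from Ywhaz at 9 of these bases, Ywhag at 11, Sfn at 12, Ywhaq at 14, Ywhab at 15 and Ywhae at 16. Of these 77 differences, 67 fall at the last base of a codon.

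Ywhag and Ywhah formed the closest pair over the whole coding sequence, at 79.0% identity, and both genes have 2 coding exons. Ywhab and Ywhaz followed at 74.9% and Ywhaq and Ywhaz at 74.0%, and these 3 genes each have 5 coding exons. Ywhae, with 6 coding exons, stood apart from all others, its lowest value being 59.8% with Sfn, a gene with 1 coding exon. The longest run of identical bases shared by any pair was 30 bases. No stretch of 100 bases, the read length that the deposited effective lengths imply, was shared between the main GENCODE M21 transcripts of any 2 members. For Ywhaq that transcript was Ywhaq-202, since its leading transcript in these libraries has no entry in M21 and was not compared.

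**Figure D1:**
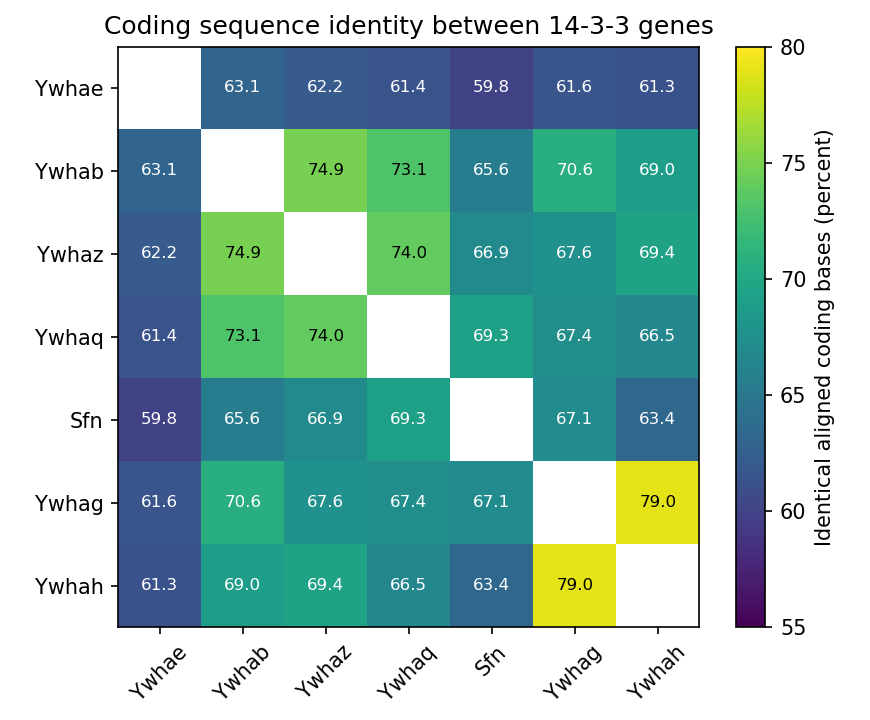
Percent of identical aligned coding bases for each pair of 14-3-3 genes (rows and columns are genes, colour runs from 55% to 80%). Ywhag with Ywhah (79.0%) and the group of Ywhab, Ywhaz and Ywhaq (73.1% to 74.9%) stand above the other pairs, and the Ywhae row is low throughout.

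The libraries held 41082811 expected reads in pup 1 and 29881397 in pup 3. Spike-ins took 4.46% of TPM in pup 1 and 7.30% in pup 3, and mitochondrial genes 5.02% in pup 1 and 6.003% in pup 3. In pup 1, 10096 genes reached TPM of 1, called found here, and in pup 3, 6960. TPM (transcripts per 1e+06) is a level scaled by transcript length and to the same total in each library, so that levels of different genes can be set side by side. The tissue label was checked against its markers: of 10 forebrain markers, both pups had 7, only pup 1 had 2 and neither had 1, led by Neurod6 at 272 TPM in pup 1 and 456 in pup 3. Of 8 hindbrain markers, 7 were found in no library and 1 in that of pup 1. Over all nuclear protein-coding genes, 24.7% were found in both pups and 53.6% in neither, so the absence of hindbrain markers is a weak check.

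Of the 7 members, 6 were found in both pups, against 24.7% of the 21460 nuclear protein-coding genes. Ywhae, Ywhaq and Ywhaz were the 3 highest members in each pup, and together they held 83.7% of the family's TPM in pup 1 and 85.0% in pup 3. Ywhah, Ywhag and Ywhab lay well below them, and Sfn had 0 reads. The summed level of the family was 5047.87 TPM in pup 1 and 4297.28 in pup 3 (4673 ± 531, mean ± SD, n = 2). That is 0.505% of all TPM in pup 1 and 0.430% in pup 3. By reads the family took 0.742% of the library in pup 1 and 0.699% in pup 3. The family's sum was thus 1.17-fold higher in pup 1, and its make-up differed more than its size.

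Ywhae (ENSMUSG00000020849, mm10 chromosome 11, 75732869 to 75765845, plus strand) encodes the epsilon protein, which shields phosphorylated Ndel1 from phosphatases and is required for neuronal migration in mice. It stood at 1862.94 TPM in pup 1, from 98206 reads, and at 1079.31 TPM in pup 3, from 49932 reads (1471 ± 554 TPM, mean ± SD, n = 2). It was the highest member in pup 1 and the next after Ywhaq in pup 3, and the pups were 1.73-fold apart. Among nuclear protein-coding genes it ranked at place 34 in pup 1 and 90 in pup 3.

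Ywhaq (ENSMUSG00000076432, chromosome 12, 21390071 to 21417637, minus strand), the theta gene, was at 1239.39 TPM in pup 1 and 1684.93 in pup 3 (1462 ± 315 TPM, n = 2). It led the family in pup 3, where it was 1.36-fold higher than in pup 1, and ranked at place 70 in pup 1 and 40 in pup 3. Ywhae and Ywhaq thus lay in opposite order in the pups, and the level of Ywhae over that of Ywhaq was 1.503 in pup 1 and 0.641 in pup 3. The means of these genes differed by far less than the spread of either.

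Ywhaz (ENSMUSG00000022285, chromosome 15, 36770770 to 36796929, minus strand) encodes the zeta protein, a frequent partner of kinases and of the microtubule protein tau. It was at 1121.04 TPM in pup 1 and 888.94 in pup 3 (1005 ± 164 TPM, n = 2). It came after Ywhae and Ywhaq in both pups and held 22.2% of the family in pup 1 and 20.7% in pup 3. Ywhaz had 93919 reads in pup 1 and 64492 in pup 3, more than Ywhaq in each. The order of these genes therefore turns round in reads not scaled by length, since the Ywhaz transcript is longer.

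Ywhah (ENSMUSG00000018965, chromosome 5, 33018816 to 33027966, plus strand), the eta gene, was at 278.58 TPM in pup 1 and 386.78 in pup 3 (333 ± 76.5 TPM, n = 2). Ywhab (ENSMUSG00000018326, chromosome 2, 163994960 to 164018588, plus strand), whose beta protein binds Raf kinases, was at 124.7 TPM in pup 1 and 167.14 in pup 3 (146 ± 30.0 TPM, n = 2). Both were higher in pup 3, Ywhah by 1.39-fold and Ywhab by 1.34-fold, close to the difference seen for Ywhaq. Ywhah over Ywhab was 2.23 in pup 1 and 2.31 in pup 3, so this pair kept its proportion.

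Ywhag (ENSMUSG00000051391, chromosome 5, 135908409 to 135934616, minus strand) encodes the gamma protein, which is abundant in neurons. It was at 421.22 TPM in pup 1, from 37951 reads, and at 90.18 TPM in pup 3, from 7034 reads (256 ± 234 TPM, n = 2). It was the member farthest apart, 4.67-fold higher in pup 1, and lay above Ywhah and Ywhab in pup 1 and below both in pup 3. The deposited credibility bounds, which cover read counting and assignment within a library only, were 408 to 417 TPM in pup 1 and 86.3 to 90.9 TPM in pup 3. Against Ywhah, its closest paralog, Ywhag was 1.51 times as high in pup 1 and 0.233 times as high in pup 3.

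Markers of neurons and glia were set beside the difference of Ywhag. The 10 pan-neuronal markers summed to 9221 TPM in pup 1 and 4374 in pup 3, with 9 found in both and 1 only in pup 1, and their medians were 141 TPM in pup 1 and 124 in pup 3. Most of the gap in the sum came from the neuronal tubulin gene Tubb3, at 6275 TPM in pup 1 and 1872 in pup 3. Stmn2, the next highest, was nearly level at 1786 TPM in pup 1 and 1738 in pup 3. Elavl3, Elavl4 and Syt1 were higher in pup 3, while Snap25, Map2, Nefl, Nefm and Rbfox3 were higher in pup 1. Of the 8 neuronal markers at a mean TPM of 50 or more, 2 (Tubb3 and Snap25) were at least 2-fold higher in pup 1 and 0 in pup 3, near the background of 19.7% in the direction of pup 1 for genes of that level. The 8 astrocyte and radial glia markers summed to 3489 TPM in pup 1 and 4086 in pup 3, with 7 found in both and 1 in pup 1 only, while their medians were 275 TPM in pup 1 and 140.1 in pup 3. Fabp7, at 1337 TPM in pup 1 and 2290 in pup 3, set the direction of that sum. Of the 6 glial markers at a mean TPM of 50 or more, 2 (Slc1a3 and Vim) were at least 2-fold higher in pup 1 and 1 (Gfap) in pup 3. The background at that level was 19.7% in the direction of pup 1 and 23.4% in that of pup 3. The part of either in the difference of Ywhag was not tested.

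Sfn (ENSMUSG00000047281, chromosome 4, 133600556 to 133602168, minus strand) had 0 reads in both pups. By read counting alone, a count of 0 allows up to 0.0747 TPM in pup 1 and 0.0855 in pup 3, taking 3 reads as the floor. These floors do not cover RNA lost before sequencing from an input of 13 pg, so they do not bound the level in the tissue. Among nuclear protein-coding genes, 53.6% were likewise found in neither pup at TPM of 1 or more. Of the 12 epithelial and keratinocyte markers, neither pup had 8, both had 2 and only pup 1 had 2. Keratin genes of the basal epidermis, Krt5, Krt14 and Krt15, had 0 reads in both, as did the keratin gene Krt8, Epcam, Cdh1 and Trp63. The 12 markers summed to 66.8 TPM in pup 1 and 84.5 in pup 3. The simple epithelial keratin gene Krt18 made up 26.9 TPM of this in pup 1 and 61.9 in pup 3. Krt10, the other marker found in both, was at 5.86 TPM in pup 1 and 22.6 in pup 3. Krt1 at 13.06 TPM and Perp at 20.99 TPM were found in pup 1 only and had 0 reads in pup 3. Keratin genes were thus not all absent beside Sfn.

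**Figure D2:**
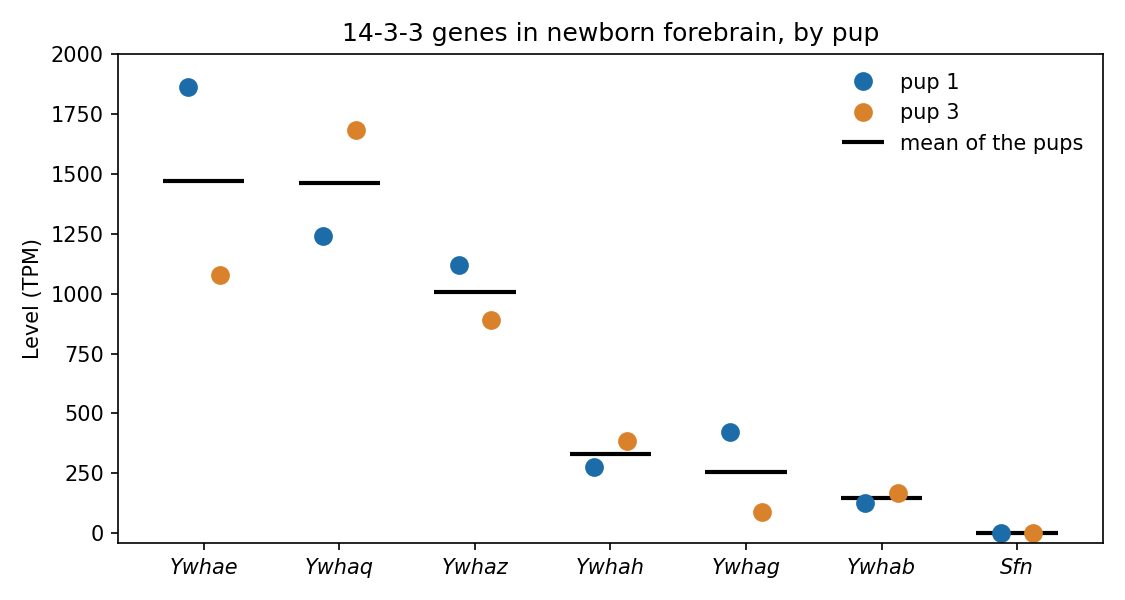
Level in TPM (linear axis) of each 14-3-3 gene, with pup 1 left, pup 3 right and a line at their mean. Ywhae, Ywhaq and Ywhaz sit between 889 and 1863 TPM, the other detected members between 90.2 and 421 TPM, and Sfn at 0.

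Of the 15 pairs among the 6 detected members, 12 had the same order in both pups and 3 did not: Ywhae with Ywhaq, Ywhag with Ywhah, and Ywhag with Ywhab. In 11 pairs the values of the pups did not overlap between the genes. Going down the order of means, Ywhae and Ywhaq overlapped, Ywhaq lay above Ywhaz in each pup, and Ywhaz lay above Ywhah without overlap. Ywhag overlapped both of its neighbours, Ywhah and Ywhab. Within a library the credibility bounds of neighbours never overlapped. The highest detected member exceeded the lowest 14.9-fold in pup 1 and 18.7-fold in pup 3.

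As shares of the family's TPM, Ywhae made up 36.9% in pup 1 and 25.1% in pup 3, while Ywhaq made up 24.6% in pup 1 and 39.2% in pup 3. These 2 members traded the largest part of the family between the pups. Ywhag made up 8.34% in pup 1 and 2.10% in pup 3. Ywhah made up 5.52% in pup 1 and 9.00% in pup 3, and Ywhab 2.47% in pup 1 and 3.89% in pup 3. Ywhag and Ywhah together held 13.9% in pup 1 and 11.1% in pup 3, closer than either alone. By reads Ywhag held 12.5% of the family in pup 1 (exact 95% interval 12.3 to 12.6) and 3.37% in pup 3 (3.29 to 3.45), intervals that cover counting error only.

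**Figure D3:**
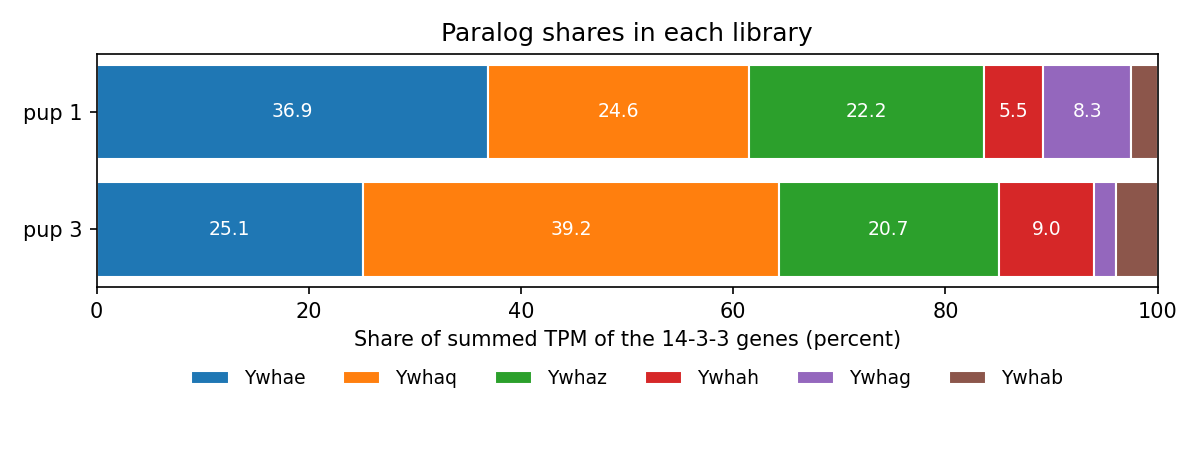
Share of each gene in the summed TPM of the 14-3-3 family (percent, stacked to 100), with pup 1 above and pup 3 below. Ywhae is the widest block in pup 1 (36.9%) and Ywhaq in pup 3 (39.2%), with Ywhaz at 22.2% in pup 1 and 20.7% in pup 3.

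Only Ywhag of the 6 detected members was 2-fold or more apart between the pups, on log2(TPM + 1), a count to be read against 43.1% of the 2797 nuclear protein-coding genes at a mean TPM of 50 or more. In the direction of pup 1 that background was 19.7%, and in the direction of pup 3 it was 23.4%. At a mean TPM of 100 or more, a level that all 6 passed, it was 35.9% in either direction over 1519 genes, with 16.7% higher in pup 1 and 19.2% in pup 3. The log2 ratio of pup 1 over pup 3 was 2.22 for Ywhag, 0.79 for Ywhae, 0.33 for Ywhaz, -0.42 for Ywhab, -0.44 for Ywhaq and -0.47 for Ywhah. The members split evenly, 3 higher in each pup, and the background had a median of -0.12.

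Genes often used as expression standards gave a second yardstick, and Ywhaz itself is used as one. Of 15 common reference genes, 14 were found in both pups, against 24.7% of nuclear protein-coding genes. Of the 10 at a mean TPM of 50 or more, 6 were within 2-fold, 2 were higher in pup 1 and 2 in pup 3. That is near the background of 43.1% apart by 2-fold or more at that level. The glycolytic gene Gapdh was at 1305 TPM in pup 1 and 1293 in pup 3, on this scale nearer between pups than any member. Ywhaz, Ywhab and Ywhaq came next on TPM, ahead of the actin gene Actb (7727 TPM in pup 1 and 5645 in pup 3). This order depends on the scaling. In reads scaled to library size, the log2 ratio was -0.69 for Ywhab, -0.68 for Ywhaq and 0.08 for Ywhaz. Actb was then nearer between pups than Ywhab and Ywhaq, and Ywhaz nearer than Gapdh. The ribosomal protein gene Rpl13a, at 1454 TPM in pup 1 and 507 in pup 3, was apart in the direction of Ywhag. The antigen-presentation gene B2m, at 107 TPM in pup 1 and 381 in pup 3, lay the other way, as did Pgk1 at 101 TPM in pup 1 and 333 in pup 3.

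**Figure D4:**
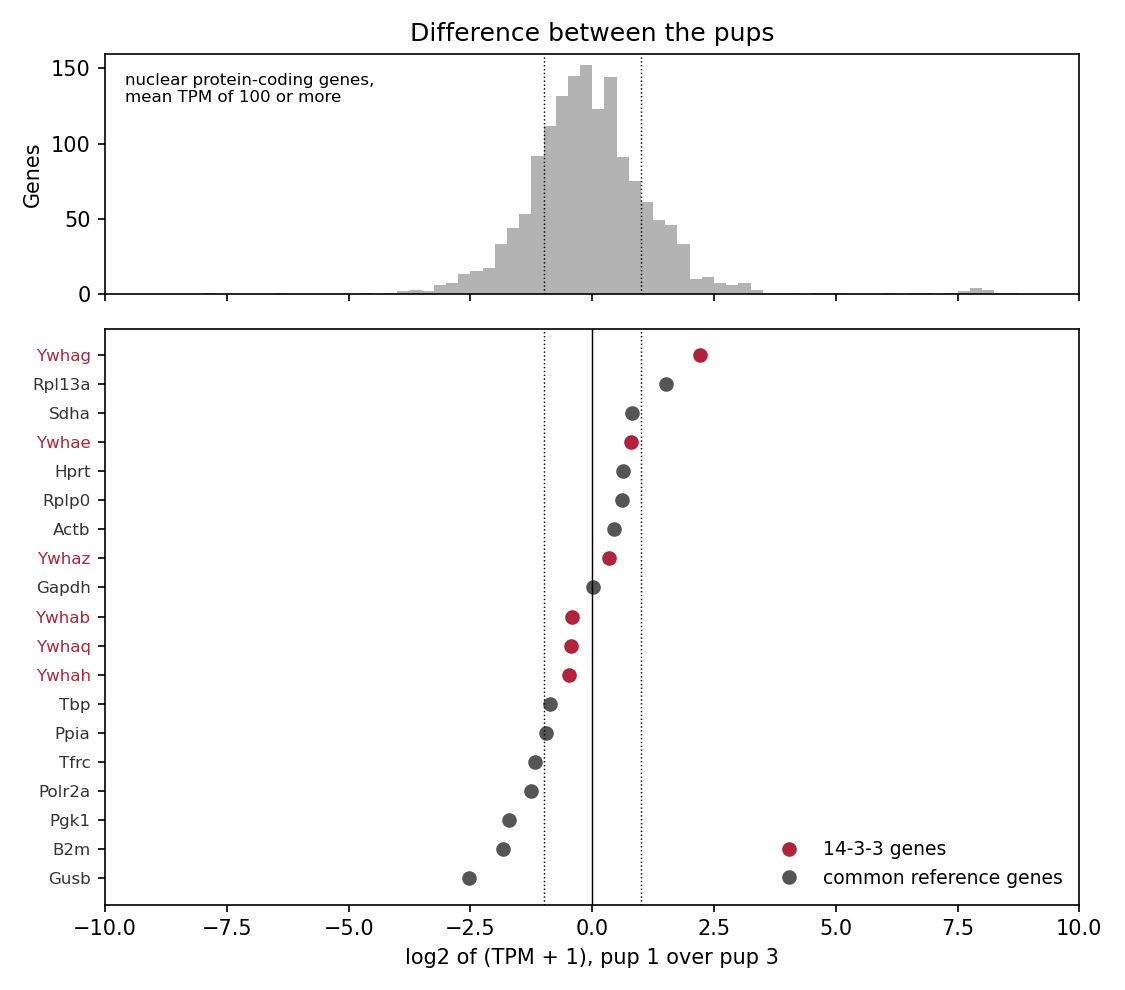
Top: number of nuclear protein-coding genes at a mean TPM of 100 or more by log2 of (TPM + 1), pup 1 over pup 3. Bottom: the same value for the 6 detected 14-3-3 genes and 13 reference genes, where dotted lines mark 2-fold; 5 members lie inside them and Ywhag outside at 2.21.

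Nearly all reads of most members came from 1 transcript. Of the 28 listed transcripts, 20 had reads and 7 held 5% or more of their gene's TPM. Ywhab-201 held 100% in both pups, Ywhah-201 100% in pup 1 and 99.8% in pup 3, Ywhae-201 98.9% in pup 1 and 99.7% in pup 3, and Ywhag-201 99.1% in pup 1 and 98.0% in pup 3. A retained-intron transcript, Ywhae-204, was at 19.0 TPM in pup 1 and 2.80 in pup 3, about 1% or less of the gene.

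Ywhaz-201 held 97.6% of its gene in pup 1 and 95.2% in pup 3. Ywhaz-203 was at 20.4 TPM in pup 1 and 38.1 in pup 3, or 1.82% of the gene in pup 1 and 4.28% in pup 3. Both carry the same 735 coding bases in 5 coding exons. They differ outside the coding sequence: Ywhaz-203 has 1 exon before the start codon, against 2 in Ywhaz-201. It ends with 1149 bases after the stop codon, against 1948 in Ywhaz-201.

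Ywhaq was the member whose reads were spread over several transcripts. The leading one, ENSMUST00000049531 of 1515 bases, was at 903 TPM in pup 1 and 1290 in pup 3, or 72.9% of the gene in pup 1 and 76.5% in pup 3. It has no entry in the GENCODE M21 release used for names, so its coding part was not analysed here. Ywhaq-202, of 2197 bases, was at 334 TPM in pup 1 and 321 in pup 3, or 26.9% in pup 1 and 19.1% in pup 3. Its level was thus nearly equal in the pups, and the difference between pups lay in the other transcripts.

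A minor transcript with another coding end, Ywhaq-205, had 9.91 reads and 0.20 TPM in pup 1 against 2529 reads and 58.3 TPM in pup 3, where it made up 3.46% of the gene. The credibility bounds were 0 to 1.90 TPM in pup 1 and 50.3 to 65.9 TPM in pup 3. This transcript was singled out after its values were seen. Its last coding exon is a different one from that of Ywhaq-202, so its coding sequence has 729 bases in place of 735. The last coding exons are printed below on mm10, 5′ to 3′, up to and including the stop codon, which is in capitals.
Ywhaq-202 (chr12:21391356-21391415, minus strand): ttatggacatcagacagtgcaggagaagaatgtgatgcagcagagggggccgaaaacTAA
Ywhaq-205 (chr12:21391746-21391799, minus strand): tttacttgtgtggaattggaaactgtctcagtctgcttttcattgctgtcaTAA
Ywhaq-202 gives 57 coding bases in this exon and Ywhaq-205 gives 51, from an exon that lies nearer to the start of the gene.

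**Figure D5:**
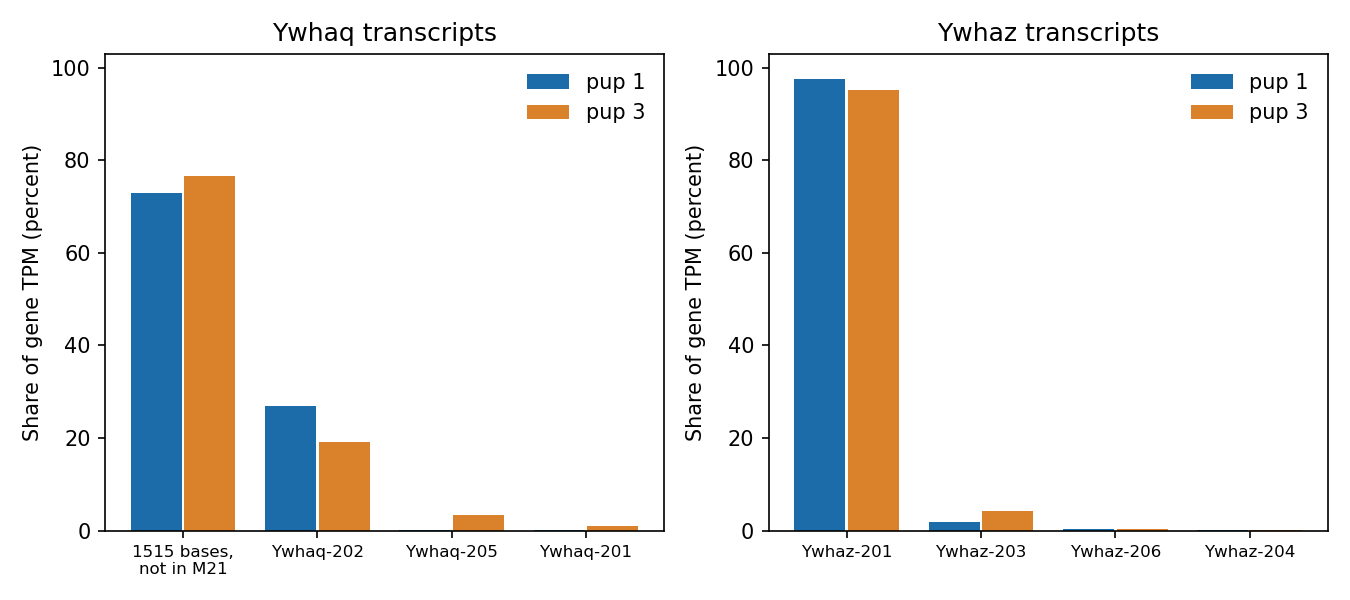
Share of the gene's TPM (percent, axis from 0) held by the 4 highest transcripts of Ywhaq and of Ywhaz, with pup 1 left of pup 3 in each pair. The 1515-base Ywhaq transcript holds 72.9% in pup 1 and 76.5% in pup 3, Ywhaq-202 26.9% in pup 1 and 19.1% in pup 3, and Ywhaz-201 97.6% in pup 1 and 95.2% in pup 3.

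Although the transcripts compared share no read-length stretch between members, some share them with processed copies elsewhere in the genome. Of all 100-base stretches of the main M21 transcripts, 26.2% for Ywhaq, 17.1% for Ywhaz and 6.91% for Ywhah also occur in another listed gene. For Ywhab, Ywhae, Ywhag and Sfn the share was 0%. The Ywhaq value is for Ywhaq-202, which held 26.9% of the gene in pup 1 and 19.1% in pup 3. The leading 1515-base transcript was not examined, and its share may differ. The split of reads between these 3 members and their copies is therefore an estimate. By alignment, 19 annotated pseudogenes resembled a member, 10 of them are listed in the tables, 8 had reads and 5 had 3 or more reads. Pseudogenes summed to 114 TPM in pup 1 and 112 in pup 3, small beside the family's total.

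The highest was Gm4202, a copy of Ywhaz with 1 differing base in 733, at 73.1 TPM in pup 1 and 65.1 in pup 3. Gm14287, which aligns to Ywhaz over 105 identical bases, was at 14.9 TPM in pup 1 and 13.9 in pup 3, from 7.10 reads in pup 1 and 5.78 in pup 3. Gm2423, a Ywhaq copy at 99.7% identity, was at 15.7 TPM in pup 1 and 11.3 in pup 3. Gm12428, a Ywhah copy, had 0.45 TPM in pup 1 and 0.59 in pup 3. Gm2423 was thus higher in pup 1, opposite to Ywhaq, with credibility bounds of 7.39 to 21.4 TPM in pup 1 and 4.42 to 18.6 in pup 3. The bounds of each of these rows overlapped between the pups. Of the rest, Gm38040, Gm13600 and Gm7977 had at most 2 reads in either pup.

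Ywhaq-ps3, on chromosome 4 within the centrosomal gene Cdk5rap2 and on the same strand, was at 9.90 TPM in pup 1 and 21.01 in pup 3, from 168 reads in pup 1 and 311 in pup 3. Its credibility bounds, 4.46 to 16.7 TPM in pup 1 and 12.8 to 27.5 in pup 3, overlapped. This copy differs from the Ywhaq coding sequence at 3 of 735 bases, C405T, T609C and C729T, where the first base is that of Ywhaq and positions count from the first coding base. One of them is shown with 20 bases on each side, to make visible how little sets the copy apart; the capital marks the differing base, coordinates are mm10.
Ywhaq (chr12:21395014-21395054, minus strand): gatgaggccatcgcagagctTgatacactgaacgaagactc
Ywhaq-ps3 (chr4:70248745-70248785, minus strand): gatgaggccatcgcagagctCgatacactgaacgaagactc
A read that lies wholly within these 735 bases and spans none of the 3 cannot be placed by sequence alone. The only Cdk5rap2 transcript with reads has 365 bases identical to Ywhaq, and it held 2.95 TPM in pup 1 and 1.67 in pup 3.

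Client and kinase genes were taken from lists of proteins known to bind 14-3-3 proteins, or of kinases that act on them or on their binding sites. Of these 78 genes, both pups had 36 at TPM of 1 or more. Over all 21460 nuclear protein-coding genes the counts were 5305 in both pups, 3742 only in pup 1, 905 only in pup 3 and 11508 in neither, with median levels of 0.01 TPM in pup 1 and 0 in pup 3. Among 14 apoptosis and growth kinase clients, both pups had 6, only pup 1 had 3, only pup 3 had 1 and neither had 4, with medians at 5.87 TPM for pup 1 and 1.07 for pup 3. Araf, a Raf kinase, was at 316 TPM in pup 1 and 264 in pup 3, and Bad, a cell death factor that 14-3-3 binding holds in the cytoplasm, was at 86.2 TPM in pup 1 and 64.9 in pup 3.

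Of 14 clients in neuronal migration and the cytoskeleton, both pups had 9, each pup alone had 2 and neither had 1, with medians at 22.3 TPM in pup 1 and 22.6 in pup 3. The actin-severing gene Cfl1 was at 2002 TPM in pup 1 and 3340 in pup 3, and the tau gene Mapt at 745 TPM in pup 1 and 553 in pup 3. Ndel1, the dynein regulator bound by the epsilon protein, was at 43.7 TPM in pup 1 and 92.6 in pup 3, opposite in direction to Ywhae. Nde1 and Pafah1b1, of the same list, lay in the direction of Ywhae. Nde1 was at 21.6 TPM in pup 1 and 0.03 in pup 3, and Pafah1b1 at 46.0 TPM in pup 1 and 2.60 in pup 3. Dcx, a microtubule protein of migrating neurons, was at 87.0 TPM in pup 1 and 115 in pup 3.

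Of 17 transcription and cell cycle clients, both pups had 5, only pup 1 had 7, only pup 3 had 1 and neither had 4, with medians at 6.29 TPM in pup 1 and 0 in pup 3. The deacetylase gene Hdac7 was at 23.5 TPM in pup 1 and 112 in pup 3. The CREB coactivator gene Crtc1 was at 6.29 TPM in pup 1 and 29.6 in pup 3, and the cell cycle inhibitor gene Cdkn1b at 29.3 TPM in pup 1 and 24.4 in pup 3. Of 13 membrane and transmitter clients, both pups had 3, only pup 1 had 3, only pup 3 had 1 and neither had 6, with medians at 0.89 TPM in pup 1 and 0 in pup 3. The GABA-B receptor gene Gabbr1 was at 77.3 TPM in pup 1 and 20.3 in pup 3, and the synapsin gene Syn1 at 2.08 TPM in pup 1 and 22.7 in pup 3.

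Of 20 kinase genes, both pups had 13, only pup 1 had 5, only pup 3 had 0 and neither had 2, with medians at 22.4 TPM in pup 1 and 15.4 in pup 3. Of the 6 at a mean TPM of 50 or more, 4 were at least 2-fold higher in pup 1 and 1 in pup 3. The casein kinase gene Csnk1a1 was at 259 TPM in pup 1 and 368 in pup 3. Pak1, a Rac effector kinase, was at 230.3 TPM in pup 1 and 58.3 in pup 3, and the protein kinase A subunit gene Prkacb at 183 TPM in pup 1 and 55.6 in pup 3. Akt2 was at 100.3 TPM in pup 1 and 34.4 in pup 3, Mapk8 at 73.9 TPM in pup 1 and 34.3 in pup 3, and Camk1 lay the other way at 26.6 TPM in pup 1 and 194 in pup 3. These counts rest on 6 genes, beside a background of 43.1% apart by 2-fold or more.

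Among 7 genes of the chromosome 11 region around Ywhae, both pups had 4, only pup 3 had 2 and neither had 1, with medians at 25.5 TPM in pup 1 and 20.98 in pup 3. Inpp5k, a phosphatase gene, was at 115 TPM in pup 1 and 182 in pup 3, and the adaptor gene Crk at 40.9 TPM in pup 1 and 20.98 in pup 3. Pitpna, a lipid transfer gene, was at 25.5 TPM in pup 1 and 31.8 in pup 3. They lay far below Ywhae and in no common direction.

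The nuclear protein-coding genes nearest to each leading member were taken by distance on log2(TPM + 1) over the 2 libraries, which describes likeness of level only. For Ywhae these were the proton pump gene Atp6v0c, at 1776 TPM in pup 1 and 1097 in pup 3 (distance 0.0727), and the ribosomal gene Rplp0 (0.132). For Ywhaq they were Rplp1, at 1215 TPM in pup 1 and 1559 in pup 3 (0.116), and the tubulin gene Tuba1b (0.157). For Ywhaz they were the creatine kinase gene Ckb, at 1102 TPM in pup 1 and 919 in pup 3 (0.0536), and Hmgn2 (0.0626).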

How the data were processed

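The deposited tables give, for each library, expected counts per gene and per transcript, that is, reads estimated with ambiguous alignments divided between features, per the file headers, which use RSEM's column names. The deposited TPM has 1 total for both libraries, counting every listed feature with spike-ins, and the deposited FPKM was used as an alternative only, per the file headers. Posterior mean TPM and credibility bounds (kept as a score, since an upper bound has no fixed total) were deposited beside them, and a deposited TPM can lie outside its bounds, which belong to the posterior mean. Aligner, counter, versions and strand setting: not given in the sources used here. Both libraries' accompanying text states mm10 and annotation M4. Isoform percent was deposited as a column and was left aside, and shares were computed from transcript TPM. Length minus effective length was 99 in all transcripts, which implies reads of 100 bases.

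Gene identifiers, without version, were matched to GENCODE M21 on mm10 for symbols, biotypes and positions (42462 genes matched, 98.0%; all 154 list symbols matched). Coding sequences were cut from its transcripts and compared with mafft 7.526, and copies were found with BLAST 2.17.0 at alignments of 100 or more bases. Protein sequences were not used here. The level for calling a gene found was TPM of 1 or more. Log2 ratios are pup 1 over pup 3, plain for members and on log2(TPM + 1) for counts against all genes, which understates low genes. Floors are 3 reads and read shares have exact Clopper-Pearson 95% intervals; both cover counting error only. The labels give separate pups but the same donor identifier, so how far the spread is biological is unknown.

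The members and lists were chosen with earlier results of these data known. Genes named are all members, pseudogenes with reads, transcripts at 5% or more of their gene, and the reference genes. From each list the 3 highest are named, and those 2-fold or more apart at a mean TPM of 50 or more (for marker lists only some). For each of the 3 highest members, 2 nearest genes are named. Krt5 and the other markers at 0 reads, Krt1 and the neuronal markers below the 3 highest were added after their values were seen. So were Nde1, Pafah1b1, Ywhae-204, Ywhaz-203 and Ywhaq-205. A few genes this rule would name are not reported here. Alternative scalings used expected counts with edgeR 4.0.16 TMM factors (0.919 and 1.09) or DESeq2 1.42.0 size factors (1.09 and 0.914) over 11993 genes, in R 4.3.3; no count test was run. Other steps used scipy 1.17.1, numpy 2.4.6, pandas 2.3.3 and matplotlib 3.10.9 in Python 3.11.15, and the ratio step was tested on simulated data.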

Additional observations from a re-analysis of the deposited data

How the results depend on the processing

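Every detected member kept the direction of its difference between pups under FPKM, posterior mean TPM, CPM (reads scaled to library size), rescaling without spike-ins and mitochondrial genes, TMM and DESeq2 factors, a pseudocount and coding transcripts alone. The log2 ratio ranged from 1.96 to 2.24 for Ywhag, 0.52 to 0.79 for Ywhae, 0.07 to 0.34 for Ywhaz, -0.69 to -0.42 for Ywhab, -0.74 to -0.47 for Ywhah and -0.71 to -0.23 for Ywhaq. The scalings move all genes together: the median log2 ratio of 2730 genes was -0.14 on TPM, -0.40 on FPKM, -0.33 on CPM and -0.12 with TMM factors. Relative to that median, Ywhag lay 2.30 to 2.36 higher, Ywhae 0.84 to 0.93 and Ywhaz 0.41 to 0.47.

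Counting only transcripts that GENCODE M21 calls coding leaves out the leading Ywhaq transcript by construction. The mean share of Ywhaq was then 10.7% in place of 31.9%, and those of Ywhab, Ywhae, Ywhah and Ywhaz were 4.30%, 40.3%, 9.81% and 28.4%. Adding that transcript back, a choice made after seeing the data, undid these moves. In reads not scaled by length, Ywhaz led the mean shares at 30.9%, Ywhaq held 23.3%, Ywhag 7.91% and Ywhab 4.28%, and 11 pairs in place of 12 kept their order in both pups, as Ywhaz then lay above Ywhae in pup 3. With pseudogene TPM added to the parent gene, Ywhaz held 22.7%. Client and kinase genes found in both pups numbered 23 at TPM of 10 or more, against 36 at TPM of 1. Single pups give the range of each mean, for Ywhag from 90.2 to 421 TPM. No paired analysis was possible because both libraries form 1 group. Each detected member had 7034 reads or more in each pup, but reads amplified from 13 pg are not independent molecules, and there was 1 library per pup.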
